A study of Mus musculus with 15 samples.

Results

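The genes followed here give the lining of blood vessels its identity and were measured in whole mouse lung. They are the receptor tyrosine kinases Tek (Tie2), Tie1, Kdr (VEGF receptor 2) and Flt1 (VEGF receptor 1), the BMP and TGF-beta receptors Eng (endoglin) and Acvrl1 (ALK1), the hypoxia-inducible factor Epas1 (HIF-2 alpha), and the identity genes Pecam1 (CD31), Cdh5 (VE-cadherin) and Vwf (von Willebrand factor). The members were all probes whose platform gene symbol is one of these names, which gave 14 of the 25697 probes on the array for 10 genes. Of these, 13 probes of 9 genes were tested among 14396 probes, since the 1 probe of Kdr was detected on 1 of 15 arrays.

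The study measured lungs of 15 C57BL/6 mice aged 22 weeks, 1 Illumina beadchip per mouse, in 4 groups. They were wild types without challenge (n = 4), homozygotes without challenge (n = 3), wild types given an OVA challenge (n = 4) and homozygotes given an OVA challenge (n = 4). OVA is ovalbumin, the egg-white antigen of mouse asthma models, and the title of the series refers to IFIT2, which interferon induces. Allele, dose, route and schedule are not stated in the labels. Male mutants are named in the design text. Against that, Xist, which is transcribed from the inactive X of female cells, was detected by each of its 2 probes on all 15 arrays, and the Y-linked genes Eif2s3y, Uty and Kdm5d on 1, 2 and 0 arrays.

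Both Ifit2 probes were detected on all 4 arrays of each wild-type group and on 0 arrays of each mutant group. An array detected between 39.8% and 53.6% of its probes, and mean raw signals ran from 319.9 to 666 in intensity units. Unchallenged arrays had means of 494.7 to 666, challenged arrays 319.9 to 502, and challenged mutant 4 was the dimmest. Lung markers were present throughout: every array detected 8 or 9 of 9 alveolar type 2 genes and 6 of 6 club cell genes on the array, and 5 of 7 alveolar type 1 genes, with Hopx and Rtkn2 never detected. Some arrays carried transcripts of other tissues. The summed intensity of 13 exocrine pancreas genes stood at 9.15 to 9.29 on the log2 scale on the unchallenged arrays. It stood at 17.15 and 16.06 on challenged wild types 1 and 2, at 14.92 and 18.31 on challenged mutants 1 and 2, and at 9.88 to 10.41 on the other challenged arrays. The thymus list reached 14.08 on challenged mutant 1 against at most 11.53 elsewhere, and the heart muscle list 15.91 on challenged wild type 4 against at most 14.82 elsewhere. Skeletal muscle and squamous epithelium lists were both low on 4 arrays, unchallenged wild type 1, challenged wild type 1 and challenged mutants 1 and 2. Their sums there were 10.96 to 12.03 and 8.90 to 9.39, against 13.96 to 16.43 and 11.85 to 15.66 elsewhere. Fits without arrays high in such transcripts, or without the 4 low in muscle and squamous transcripts, are given where a call changes.

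Endothelial cells line every vessel and form the capillary wall across which the lung exchanges gas. Tek binds the angiopoietins and, with its relative Tie1, keeps vessels quiet and tight. Kdr carries most of the growth signal of VEGF, and Flt1 binds VEGF tightly and can act as a trap for it. Acvrl1, helped by its co-receptor Eng, answers circulating BMP ligands, and loss of either gene causes hereditary haemorrhagic telangiectasia in humans. Epas1 is an oxygen-regulated transcription factor that is abundant in lung endothelium and alveolar cells. Cdh5 and Pecam1 hold endothelial cells together at their junctions, and Vwf is the clotting protein that endothelium stores and secretes.

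Promoter windows of Tek, Tie1 and Eng, receptor genes whose levels moved together with the challenge, are printed for reference. Each holds the 250 bases before a RefSeq start site on build GRCm38.p6. For Tek that site lies inside the annotated gene, which begins at chr4:94739086, so most of its window lies within the gene. Capitals mark TTCCTG, which is CAGGAA read on the opposite strand, a core bound by the endothelial ETS factors ERG and FLI1.
Tek, chr4:94739039-94739288, plus strand: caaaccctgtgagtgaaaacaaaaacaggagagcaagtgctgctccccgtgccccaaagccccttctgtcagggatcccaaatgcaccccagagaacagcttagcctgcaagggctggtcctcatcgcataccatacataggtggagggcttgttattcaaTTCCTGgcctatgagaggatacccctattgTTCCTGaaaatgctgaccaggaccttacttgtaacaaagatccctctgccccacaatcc
Tie1, chr4:118489850-118490099, minus strand: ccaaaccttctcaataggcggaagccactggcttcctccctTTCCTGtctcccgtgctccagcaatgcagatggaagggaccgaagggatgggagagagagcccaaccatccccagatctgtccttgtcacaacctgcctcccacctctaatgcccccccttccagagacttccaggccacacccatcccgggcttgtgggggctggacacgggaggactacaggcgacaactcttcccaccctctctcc
Eng, chr2:32646345-32646594, plus strand: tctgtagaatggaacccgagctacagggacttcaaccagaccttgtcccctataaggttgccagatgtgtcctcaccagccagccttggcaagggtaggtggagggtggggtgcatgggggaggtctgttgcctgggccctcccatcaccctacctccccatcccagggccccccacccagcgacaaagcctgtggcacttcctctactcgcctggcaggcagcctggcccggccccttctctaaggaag
The 6-letter core, searched on both strands, occurs 2 times in the Tek window, starting 89 and 59 bases before that start site. It occurs 1 time in the Tie1 window and 0 times in those of Eng, Kdr and Flt1. It is held by 25.7% of the 32851 windows of that length. The hypoxia factor core ACGTG, held by 16.6% of windows, and the GATA core AGATAA, held by 9.99%, occur in none of these 5 windows. These are matches of letters and not sites of binding. Of the 10 genes 5 had a promoter entry in RefSeq. Both Tek cores, and the whole Kdr and Flt1 windows, lie within the annotated genes.

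What the challenge did to these genes in wild-type lung was asked first. Tek, Tie1, Eng, Epas1 and Pecam1 fell, while Flt1, Acvrl1, Cdh5 and Vwf did not pass the test on their brightest probes. Of the 9 tested members 5 were called lower and 0 higher, against 11.4% of 10194 genes called lower and 11.2% called higher by the same fit. The groups did not overlap, with challenge lower, for 6 of 9 members (the 5 and Flt1), as for 14.8% of genes. The median log2 change of the 9 members was -0.57, beside 0.02 for all genes tested. Members and lists were chosen with earlier results of these data known, so such counts are description and no independent test. In whole-lung RNA fewer endothelial cells and less RNA per cell cannot be told apart. With the mean raw signal of the array as a covariate 3 members passed (Cdh5, Eng and Epas1), and with median scaling, which moved the median of all probes to -0.31, 8 passed. Brightness moved with the challenge, and its part in the result was not tested beyond that fit.

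In mutant lung the same 5 genes were called lower and 0 higher, against 15.2% of genes called lower and 15.0% called higher. The groups did not overlap, with challenge lower, for 6 of 9 members (the 5 and Acvrl1), as for 19.7% of genes. The median log2 change of the members was -0.67, beside 0.01 for all genes. The wild-type and mutant comparisons share no arrays, but they share the normalization and the estimate of spread from 1 fit over all 15 arrays. Brightness moved with the challenge in both. With the mean signal as a covariate 2 members passed here (Eng and Epas1), and with median scaling, which moved the median of all probes to -0.54, 8 passed.

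**Figure D1:**
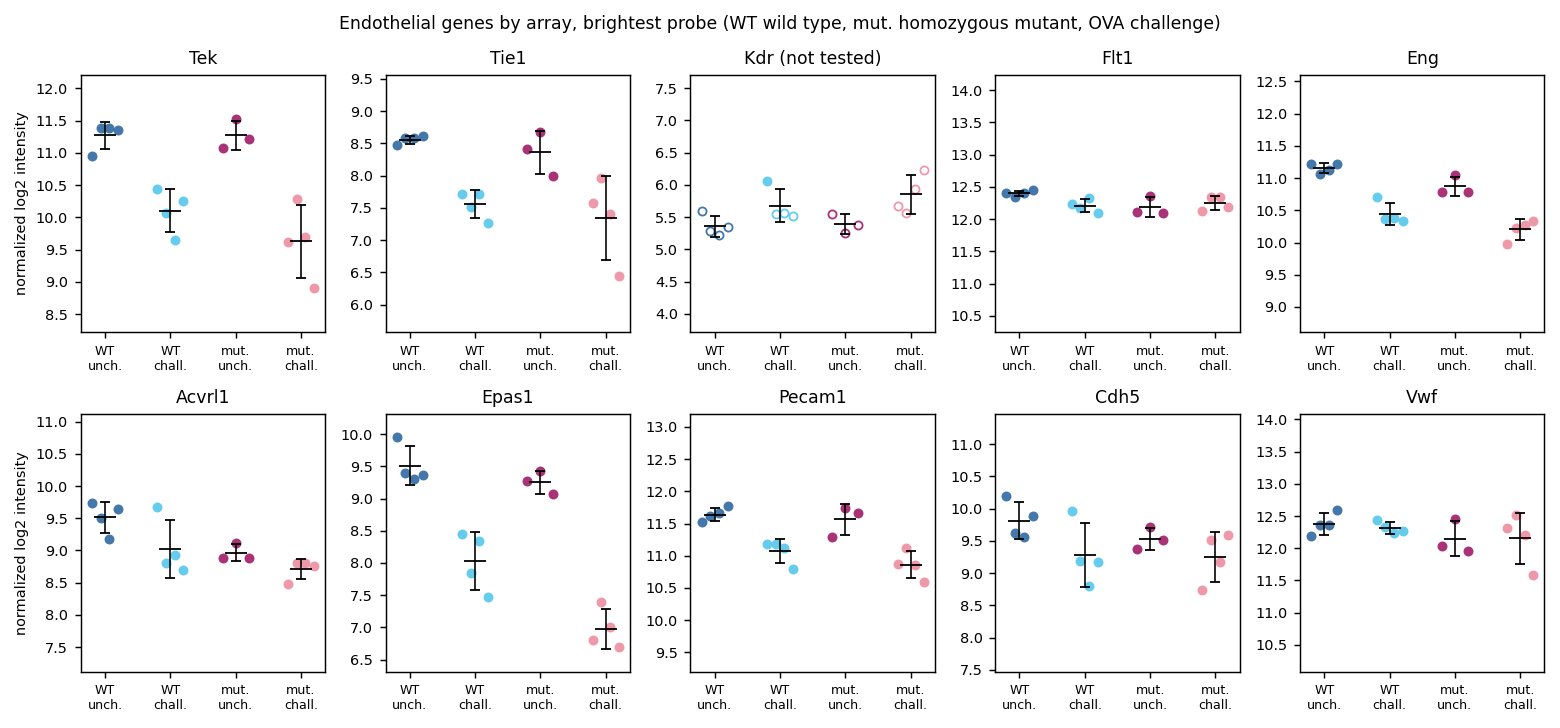
Normalized log2 intensity (y axes, each spanning 4 log2 units) of the brightest probe of each gene on each array, by group (WT wild type, mut. homozygous mutant, unch. without and chall. with OVA challenge). Points are arrays in replicate order, open where the probe was not detected, and bars are the mean and SD. Tek, Tie1, Eng, Epas1 and Pecam1 sit lower on challenged arrays of both genotypes, with no overlap, while Vwf overlaps.

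The TIE receptors are described first. Tek stood at log2 intensities of 10.95, 11.39, 11.38 and 11.36 in unchallenged wild types 1 to 4 and at 10.44, 10.07, 9.65 and 10.25 in challenged ones. Its level was 11.08, 11.52 and 11.22 in unchallenged mutants and 9.61, 10.28, 9.70 and 8.91 in challenged mutants. Every challenged array lay below every unchallenged array of its genotype, and challenged mutant 4, the dimmest array, was the lowest of all. The log2 change was -1.17 ± 0.24 (SE; limma adjusted p = 0.00431) in wild types and -1.65 ± 0.26 (adjusted p = 0.000724) in mutants, that is 55.5% and 68.1% lower. With mean signal as a covariate these changes were -0.71 and -0.80 and did not pass (adjusted p = 0.0872 and 0.215).

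Tie1 was tight in unchallenged wild types, at 8.47, 8.58, 8.58 and 8.61, and stood at 7.72, 7.52, 7.72 and 7.26 after challenge. In mutants it was 8.41, 8.67 and 8.00 without challenge and 7.58, 7.96, 7.40 and 6.44 with it. The groups did not overlap in either genotype. Tie1 fell by 1.01 ± 0.25 in wild types (SE; limma adjusted p = 0.0113) and by 1.01 ± 0.27 in mutants (adjusted p = 0.0126) on the log2 scale. In mutants the call ended without unchallenged mutant 2 (log2 change -0.86, adjusted p = 0.0714), when only those groups were fitted (adjusted p = 0.0777) and with mean signal as a covariate (log2 change -0.18, adjusted p = 0.822), which in wild types gave -0.56 (adjusted p = 0.196).

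Among the partners of these receptors, 7 of 8 listed genes were tested, and 2 fell and 1 rose in each genotype. By the same fit 11.4% of all genes were called lower and 11.2% higher in wild types, and 15.2% and 15.0% in mutants. Angpt1, the ligand that activates Tek, fell by 1.41 ± 0.23 in wild types and by 1.26 ± 0.25 in mutants (SE, log2; limma adjusted p = 0.00113 and 0.00250). Angpt2, the context-dependent antagonist, was at -0.31 and -0.22 and did not pass. Ptprb, the phosphatase VE-PTP that restrains Tek, fell by 0.57 in wild types and by 0.83 in mutants (adjusted p = 0.0304 and 0.00519). Dok2, an adaptor that docks on activated Tek and is also found in blood cells, rose by 2.06 and 2.14 on the log2 scale, against the direction of the receptors. Foxo1, a transcription factor held in check by this pathway, was at -0.42 and -0.15 without passing.

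Of the VEGF receptors only Flt1 could be tested. The Kdr probe ranged from 5.22 to 5.59 on unchallenged and from 5.52 to 6.23 on challenged arrays, and was detected only on challenged wild type 1, so no level or change of Kdr can be given. Flt1 on its bright probe stood at 12.40, 12.35, 12.41 and 12.45 in unchallenged wild types and at 12.23, 12.18, 12.33 and 12.09 in challenged ones. In mutants it stood at 12.11, 12.36 and 12.09 without and at 12.13, 12.34, 12.34 and 12.19 with challenge. The wild-type groups did not overlap, the mutant groups did, and the whole range over 15 arrays was narrow. The log2 change was -0.20 (95% interval -0.41 to 0.02; limma adjusted p = 0.174) in wild types, but -0.50 with the mean over both probes (adjusted p = 0.00871) and -0.53 with median scaling (adjusted p = 0.0284). In mutants it was 0.06 (-0.17 to 0.30; adjusted p = 0.668), turning to -0.55 (adjusted p = 0.0211) with median scaling, a value close to the shift of -0.54 that this scaling gave all probes.

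The second Flt1 probe, ILMN_2732721, gave another picture. It was detected on all 7 unchallenged and on 0 of 8 challenged arrays, with group means of 6.18 ± 0.23 (SD, n = 4) and 5.95 ± 0.24 (SD, n = 3) without challenge and 5.38 ± 0.30 and 5.30 ± 0.12 (SD, n = 4 each) with it. As the challenged groups lie below the limit of detection, the wild-type difference is a bound of at least 1.31-fold lower, by the higher of the lowest detected signal and the probe's own on each array (limma adjusted p = 0.00394 for the measured values). For the mutants that bound falls under 1 and gives no fold (adjusted p = 0.0143). Both probes are annotated to the same RefSeq accession, and where they lie on the transcript was not analysed here.

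Of the VEGF ligands and co-receptors 7 of 10 listed genes were tested, and 3 fell in wild types, while 4 fell and 1 rose in mutants. Of all genes 11.4% were called lower in wild types, and 15.2% lower and 15.0% higher in mutants. The lymphatic growth factors Vegfc and Vegfd fell in both, with log2 changes of -0.84 ± 0.18 and -0.86 ± 0.19 for Vegfc and of -1.04 ± 0.17 and -0.98 ± 0.18 for Vegfd (SE, wild types and mutants). Vegfa, the main ligand of Kdr and Flt1, was at -0.36 in wild types (limma adjusted p = 0.0682) and fell by 0.56 in mutants (adjusted p = 0.0108). The co-receptor Nrp1 fell, with log2 changes of -0.35 and -0.49 (adjusted p = 0.0454 and 0.0117). Plxnd1, a semaphorin receptor of vessels, was at 0.35 in wild types without passing and rose by 0.57 in mutants.

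**Figure D2:**
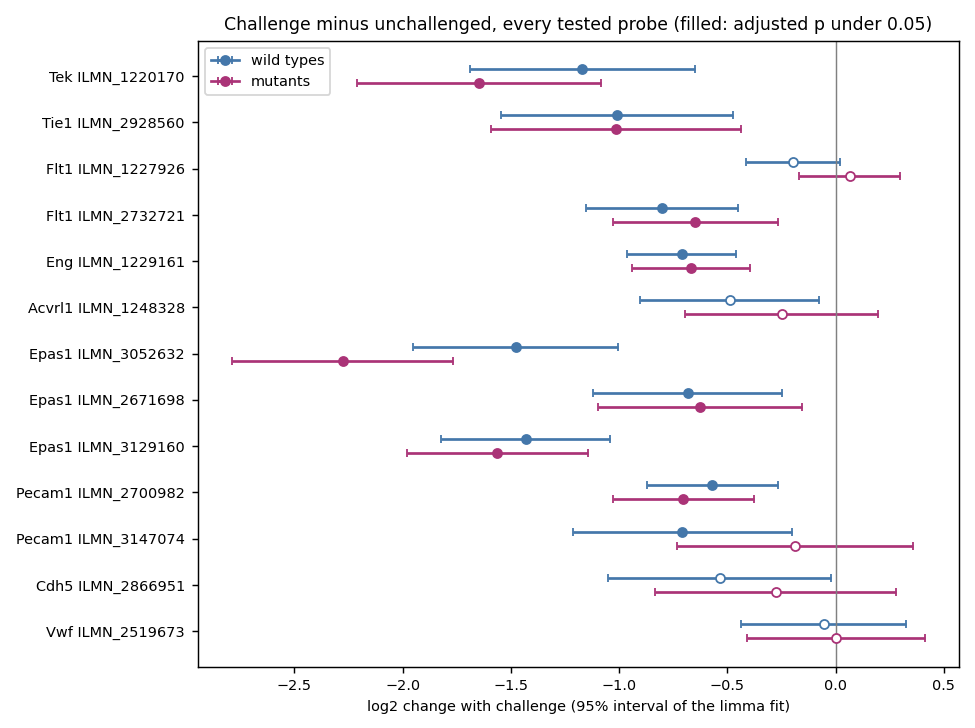
Log2 change with challenge (x axis) and its 95% interval in wild types and mutants for each of the 13 tested probes, ordered by gene, the brightest probe of a gene first. Filled points have an adjusted p under 0.05. The Epas1 probe ILMN_3052632 lies farthest below 0, at -1.48 and -2.28, and Vwf lies at -0.05 and 0.00.

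Eng and Acvrl1, the receptor pair for circulating BMP ligands, are described as a pair. Eng stood at 11.22, 11.07, 11.12 and 11.22 in unchallenged wild types and at 10.70, 10.36, 10.38 and 10.34 in challenged ones. Mutants were at 10.79, 11.04 and 10.78 without challenge and at 9.98, 10.22, 10.27 and 10.34 with it. The challenged arrays were lower without overlap in both genotypes, and challenged wild type 1 stood above the rest of its group. Eng fell by 0.71 ± 0.12 in wild types (SE; limma adjusted p = 0.00121) and by 0.67 ± 0.13 in mutants (adjusted p = 0.00206) on the log2 scale, 38.9% and 37.1% lower. It passed in all 31 alternative fits of each comparison, as did Epas1 and no other member. For Epas1 these fits used its brightest probe, except the fit on the mean over a gene's probes.

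Acvrl1 varied more. It was at 9.74, 9.50, 9.18 and 9.64 in unchallenged and at 9.68, 8.80, 8.93 and 8.69 in challenged wild types, where challenged wild type 1 alone reached into the unchallenged range. Mutants were at 8.89, 9.12 and 8.89 without and at 8.48, 8.81, 8.81 and 8.76 with challenge, lower without overlap. The log2 change was -0.49 ± 0.19 (SE; limma adjusted p = 0.0828) in wild types and -0.25 ± 0.21 (adjusted p = 0.378) in mutants. Without challenged wild type 1 the wild-type change was -0.71 and passed (adjusted p = 0.00525). Without the 4 arrays low in muscle and squamous transcripts that change was -0.63 and passed (limma adjusted p = 0.0133).

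Other genes of this pathway are given by their counts. Of 20 listed BMP and TGF-beta genes 16 were tested, and 9 fell and 1 rose in wild types, while 9 fell and 0 rose in mutants, beside 11.4% and 15.2% of all genes called lower. Tmem100, a membrane protein induced by ALK1 signalling, fell, with log2 changes of -1.17 ± 0.14 and -1.28 ± 0.15 (SE, log2; limma adjusted p = 0.000148 in wild types and 0.000140 in mutants). The BMP type 2 receptor gene Bmpr2, mutated in heritable pulmonary hypertension, fell, with log2 changes of -0.91 and -0.61, and so did the TGF-beta type 2 receptor gene Tgfbr2, at -0.93 and -1.08. Smad6, an inhibitory SMAD, fell, with log2 changes of -0.92 and -1.30, and so did the shared mediator Smad4, at -0.40 and -0.54. Id2, a gene induced by BMP signals, was the 1 that rose, by 0.40 in wild types (-0.04 with median scaling, when the median over all probes was -0.31), and was at 0.13 in mutants without passing. Its relative Id1 fell by 0.66 in wild types and was at -0.27 in mutants without passing. Gdf2, the circulating ligand BMP9, was at 0.14 and 0.03 without passing.

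Epas1 was measured by 3 probes that differed in the size of the change, the brightest showing more than any other member and ILMN_2671698 less than Tek and Tie1. On the brightest, ILMN_3052632, the unchallenged wild types stood at 9.96, 9.40, 9.31 and 9.36 and the challenged ones at 8.45, 7.85, 8.34 and 7.48. Mutants were at 9.27, 9.42 and 9.07 without challenge and at 6.80, 7.40, 7.01 and 6.70 with it. All challenged arrays lay below all unchallenged arrays, and the 4 challenged mutants lay below the 4 challenged wild types. The log2 change was -1.48 ± 0.22 (SE; limma adjusted p = 0.000617) in wild types and -2.28 ± 0.24 (adjusted p = 6.88e-05) in mutants, 64.1% and 79.4% lower.

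Probe ILMN_2671698 gave smaller changes, -0.68 ± 0.20 in wild types and -0.63 ± 0.22 in mutants (SE; limma adjusted p = 0.0277 and 0.0447). Its group means were 8.64 ± 0.12 and 7.95 ± 0.45 (SD, n = 4 each) in wild types and 8.49 ± 0.14 (SD, n = 3) and 7.87 ± 0.33 (SD, n = 4) in mutants, with no overlap within either genotype. Probe ILMN_3129160 was detected on all 7 unchallenged and 0 of 8 challenged arrays, so its difference is a bound of at least 1.67-fold lower in wild types and at least 1.49-fold lower in mutants (adjusted p = 0.000208 and 0.000175). The direction was shared by all 3 probes, while the size was not.

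**Figure D3:**
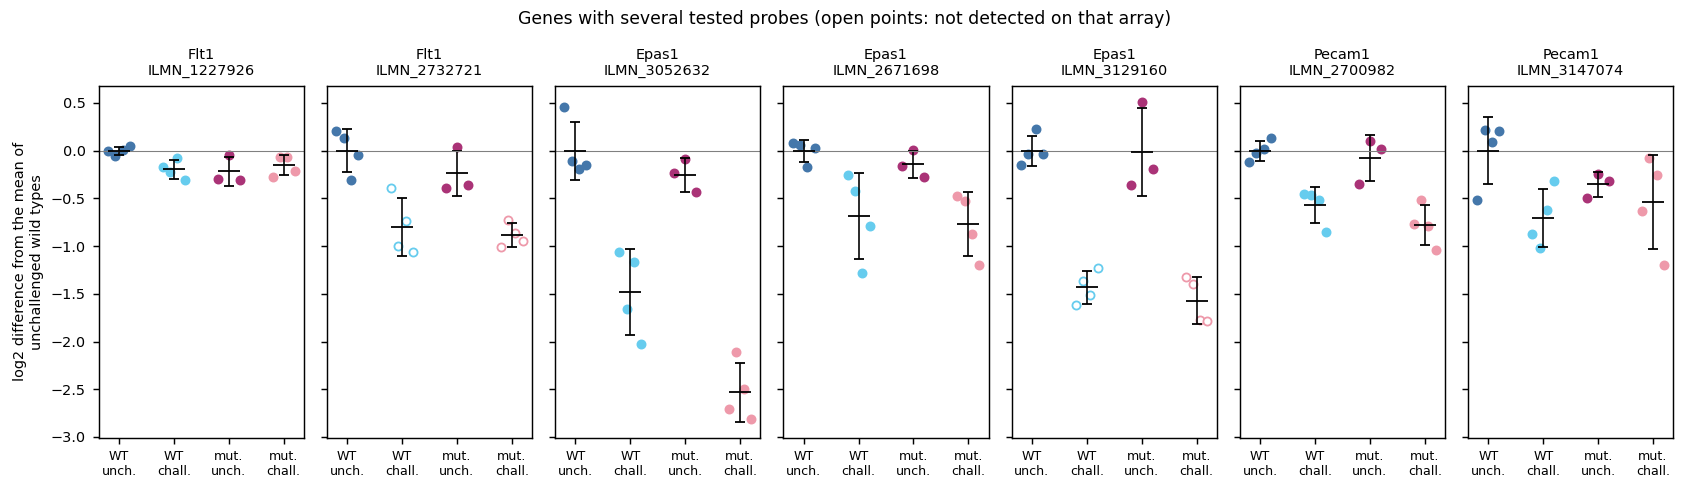
Log2 difference of each array from the mean of unchallenged wild types (y axis) for the 2 Flt1, 3 Epas1 and 2 Pecam1 probes, by group. Open points are arrays on which the probe was not detected, and bars are the mean and SD. Only the Epas1 probe ILMN_3052632 sets challenged mutants apart from challenged wild types, and the bright Flt1 probe stays close to 0.

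The other hypoxia genes are given by their counts. Of all genes 11.4% were called lower and 11.2% higher in wild types, and 15.2% and 15.0% in mutants. Among 8 factors and regulators 7 were tested, with 1 lower and 2 higher in wild types, and 2 lower and 1 higher in mutants. Hif1a, the sister factor of Epas1, was at -0.37 in wild types without passing and fell by 0.64 in mutants (limma adjusted p = 0.0263). The oxygen-sensing hydroxylase gene Egln1 fell, with log2 changes of -0.59 and -1.05, and Vhl, whose product marks the factors for destruction, rose by 0.63 and 0.88. Egln3, a hydroxylase gene induced by hypoxia, rose by 1.34 in wild types (adjusted p = 0.0457) and was at 0.87 in mutants without passing (adjusted p = 0.182). Of 14 listed target genes 10 were tested, with 1 lower and 2 higher in wild types and 3 lower and 1 higher in mutants. The lipase inhibitor gene Angptl4 fell, with log2 changes of -2.79 and -1.45. Ldha, lactate dehydrogenase, rose by 0.64 and 0.46 (-0.18 in mutants with median scaling, when the median over all probes was -0.54), and Slc2a1, the glucose transporter GLUT1, rose by 0.76 in wild types and was at 0.31 in mutants without passing.

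Pecam1, Cdh5 and Vwf are the identity genes. Pecam1 on its brightest probe was at 11.52, 11.61, 11.66 and 11.77 in unchallenged and at 11.19, 11.18, 11.12 and 10.79 in challenged wild types. In mutants the values were 11.29, 11.74 and 11.66 without and 10.87, 11.12, 10.85 and 10.60 with challenge. No group overlapped its counterpart. Pecam1 fell by 0.57 ± 0.14 in wild types (SE; limma adjusted p = 0.0112) and by 0.70 ± 0.15 in mutants (adjusted p = 0.00411) on the log2 scale. Its second probe, annotated to another transcript accession of the gene, fell by 0.71 ± 0.24 in wild types (adjusted p = 0.0445) with overlapping groups. In mutants that probe was at -0.19 ± 0.25 (adjusted p = 0.592), and averaged over both probes the Pecam1 change there was -0.45 and did not pass (adjusted p = 0.0654).

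Cdh5 stood at 10.20, 9.62, 9.56 and 9.88 in unchallenged and at 9.97, 9.18, 8.80 and 9.17 in challenged wild types. Mutants were at 9.37, 9.71 and 9.51 without and at 8.74, 9.51, 9.17 and 9.59 with challenge. Groups overlapped in both genotypes, with challenged wild type 1 again the high array. The log2 change was -0.54 ± 0.24 (SE; limma adjusted p = 0.125) in wild types and -0.28 ± 0.26 (adjusted p = 0.430) in mutants. Without challenged wild type 1 the wild-type change was -0.77 and passed (adjusted p = 0.0220). Without the 4 arrays low in muscle and squamous transcripts that change was -0.64 and passed (limma adjusted p = 0.0228).

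Vwf was at 12.19, 12.36, 12.36 and 12.59 in unchallenged and at 12.44, 12.33, 12.24 and 12.26 in challenged wild types. Mutants were at 12.03, 12.46 and 11.96 without and at 12.31, 12.51, 12.21 and 11.58 with challenge. The groups overlapped, and the low value of challenged mutant 4 spread its group. The log2 change was -0.05 (95% interval -0.43 to 0.33; limma adjusted p = 0.851) in wild types and 0.00 (-0.41 to 0.41; adjusted p = 0.995) in mutants. These values depended on the fit: mean signal as a covariate gave 0.30 and 0.66 and median scaling -0.38 and -0.61, none of which passed.

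Megakaryocytes and their platelets also carry Vwf and Pecam1, and markers of these cells rose with the challenge. Of 10 listed genes 7 were on the array and 6 were tested, all 6 called higher in wild types and 5 in mutants, with Clec1b never detected. Of all genes 11.2% were called higher in wild types and 15.0% in mutants. Pf4, a platelet chemokine, rose by 0.96 ± 0.16 and 1.27 ± 0.17, and Gp5, a subunit of the platelet receptor for Vwf, by 0.86 ± 0.20 and 1.04 ± 0.21 (SE, log2). The summed level of the list ranged from 10.49 to 11.03 on the log2 scale in unchallenged and from 11.47 to 11.90 in challenged wild types. In mutants it ranged from 10.24 to 10.30 and from 11.16 to 11.58. Its part in the values of Vwf and Pecam1 was not tested.

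Beyond the 10 members, lists of genes of the same cells were counted. Across 11 lists 118 distinct genes other than the members were tested, of which 42 fell, 9 rose and 67 did not pass in wild types, with a median log2 change of -0.36 beside 0.02 for all genes. In mutants 44 fell, 8 rose and 66 did not pass, with a median of -0.38 beside 0.01 for all genes. All genes were called lower in 11.4% and higher in 11.2% of cases in wild types, and in 15.2% and 15.0% in mutants. The counts of single lists that follow are to be read beside these shares. Like the members, the lists were chosen with earlier results of these data known, so their counts are description. Among 20 tested junction and surface genes 8 fell in wild types and 6 in mutants, and 0 rose. Ramp2, the adrenomedullin receptor partner, fell by 1.00 on the log2 scale in wild types and by 0.98 in mutants. The secreted factor gene Egfl7 was at -0.71 and -0.69, the sialomucin gene Emcn at -0.54 and -0.54, and the junction gene Jup at -0.92 and -1.05, and each of these passed in both genotypes.

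Of 20 tested transcription factor genes 7 fell and 0 rose in wild types, and 7 fell and 1 rose in mutants. Foxf1, needed for lung capillaries, fell, with log2 changes of -1.24 ± 0.19 and -1.16 ± 0.20 (SE, log2; limma adjusted p = 0.000622 and 0.00117). Sox7 was at -0.69 and -0.92, Gata2 at -0.64 and -0.60, Heyl at -0.51 and -0.66, and Ets2 at -0.92 and -0.60, and all of these passed in both genotypes. In the Notch and ephrin list, 2 of 10 fell and 1 rose in wild types and 3 fell and 0 rose in mutants. The ephrin gene Efnb1 fell, with log2 changes of -1.32 and -1.08, and Notch4 fell, with -0.34 and -0.35, while the Notch ligand gene Jag1 rose by 0.80 in wild types and was at 0.20 in mutants without passing.

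Genes of vascular tone and coagulation fell in 7 of 14 tested cases in each genotype, and 0 rose. The angiotensin-converting enzyme gene Ace fell, with log2 changes of -1.18 and -1.02. The caveolar genes fell too, Cav1 with -0.64 and -0.66 and Cav2 with -1.35 and -1.27. Edn1, the vasoconstrictor endothelin, was at -0.88 in wild types (limma adjusted p = 0.0541) and fell by 1.41 in mutants (adjusted p = 0.00698). Capillary genes fell in 6 of 10 tested cases in wild types and 5 in mutants, with 0 higher. Gpihbp1, which anchors lipoprotein lipase on capillaries, fell by 0.79 in wild types and was at -0.54 in mutants without passing. Cd93 fell, with log2 changes of -0.76 and -0.71.

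In the leukocyte adhesion list 2 of 5 tested genes were higher and 0 lower in wild types, and 3 were higher and 1 lower in mutants. Ackr1, a chemokine-binding receptor of venules, rose by 1.11 ± 0.25 and 1.07 ± 0.27 (SE, log2; limma adjusted p = 0.00665 and 0.00952). Selp, the platelet and venule selectin, was at 0.51 in wild types without passing and rose by 0.91 in mutants. Cd44, carried by many leukocytes too, rose by 0.83 and 0.52 (-0.22 in mutants with median scaling, beside -0.54 for the median of all probes). Icam1 was at -0.54 in wild types and fell by 0.76 in mutants, and Vcam1 was at 0.00 and 0.20 without passing.

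**Figure D4:**
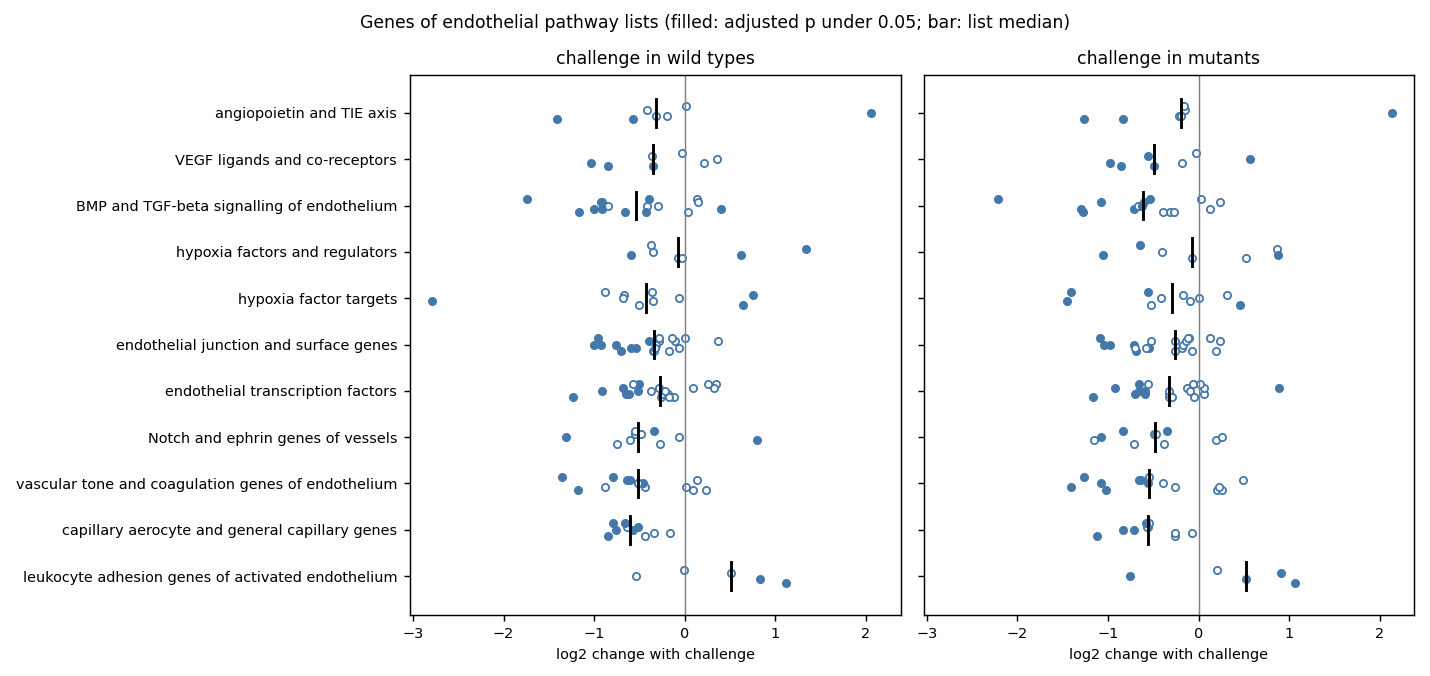
Log2 change with challenge (x axis) of every tested gene of the 11 endothelial pathway lists in wild types (left) and mutants (right). Each point is a gene by its brightest probe, filled where the adjusted p is under 0.05, and the bar is the list median. List medians lie below 0 except for the leukocyte adhesion list, at 0.51 and 0.52. The latter is the value of Cd44, a gene at -0.22 with median scaling, which moved the median of all probes by -0.54.

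Marker lists of other lung cells are given by their counts, and most by their sums too. Of all genes 11.4% were called lower and 11.2% higher in wild types, and 15.2% and 15.0% in mutants. Some of the counts below are near these shares. Alveolar type 1 genes, which mark the epithelium that faces the capillaries, fell in 2 of 5 tested cases in wild types and 4 in mutants. Their summed level was 15.15 to 15.22 in unchallenged and 14.60 to 14.90 in challenged wild types on the log2 scale, and 14.87 to 15.19 and 14.20 to 14.79 in mutants. Mural cell genes, which mark pericytes and vascular muscle, fell in 1 of 11 tested cases in wild types and 6 in mutants, with Cnn1 never detected. Their summed level was 14.32 to 14.40 without and 14.54 to 14.77 with challenge in wild types, and lay at 14.02 to 14.41 and 13.82 to 14.15 in mutants. Macrophage and monocyte genes rose in 4 of 7 tested cases in wild types and 3 in mutants, with Ccr2 never detected, and their summed level was 16.51 to 16.59 and 16.38 to 16.62 in wild types. In mutants it was 16.57 to 16.65 and 16.19 to 16.42. Neutrophil genes rose in 4 of 8 tested cases in wild types and 3 in mutants, with Mmp8 and Camp never detected, and their sums were 11.59 to 12.59 and 12.84 to 13.46 in wild types and 11.90 to 12.57 and 13.16 to 13.50 in mutants. B cell genes rose in 1 of 6 tested cases in wild types and 5 in mutants, with Pax5 and Cr2 never detected, and their sums were 9.94 to 10.59 and 10.92 to 11.68 in wild types and 9.67 to 10.85 and 11.12 to 12.95 in mutants. Club cell genes fell in 2 of 6 tested cases in wild types and 4 in mutants, and their sums were 16.84 to 16.98 and 16.37 to 16.78 in wild types and 16.69 to 16.94 and 16.07 to 16.36 in mutants. Alveolar type 2 genes fell in 3 and rose in 2 of 9 tested cases in wild types, and 4 fell and 0 rose in mutants. Ciliated cell genes fell in 0 of 7 tested cases in wild types and 3 in mutants, and 0 rose, with Dnah5 never detected. Fibroblast genes fell in 2 and rose in 2 of 7 tested cases in each genotype. T cell genes rose in 0 of 6 tested cases in wild types and 2 in mutants, and 0 fell, with Cd8a never detected. Which part such shifts have in the members' values was not tested.

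**Figure D5:**
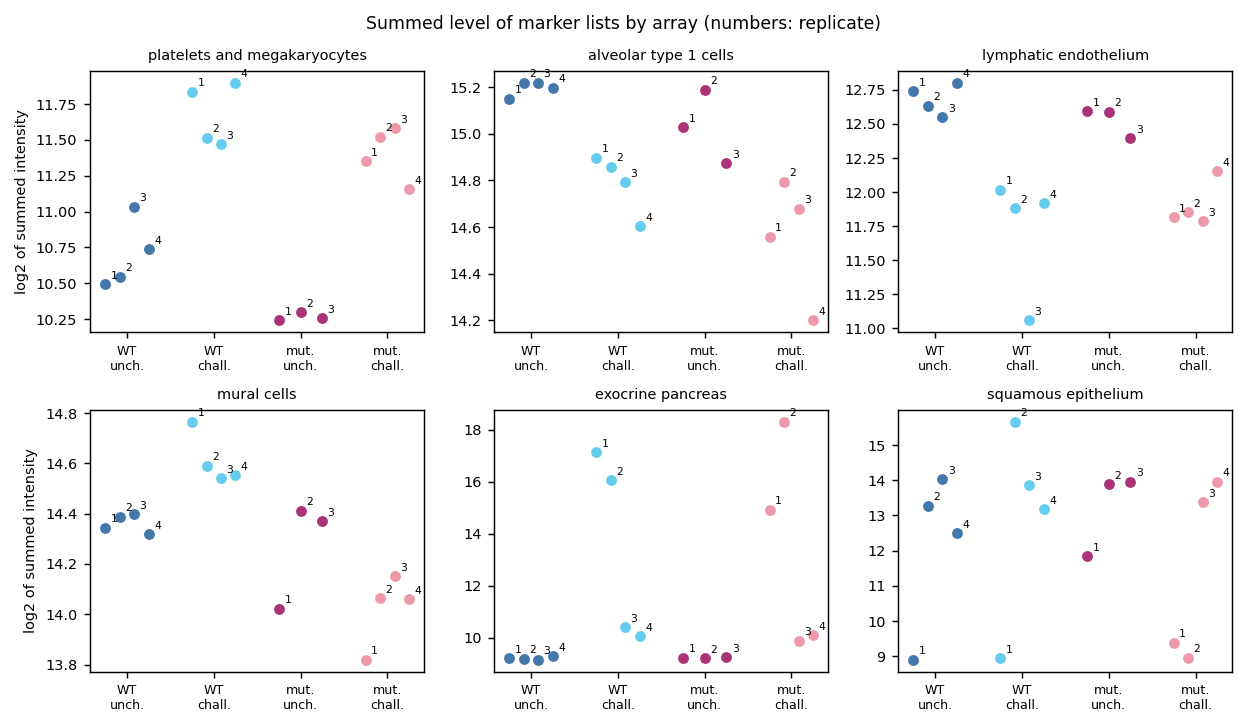
Log2 of the summed normalized intensity (y axes) of 6 marker lists on each array, by group, with the replicate number beside each point. The platelet list is higher on challenged arrays of both genotypes, the alveolar type 1 and lymphatic lists are lower, and the pancreas list is high on 4 of 8 challenged arrays.

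Some arrays were high or low for most members of their group and others were not. Unchallenged mutant 2 was the highest of its group for 9 of 9 tested members, challenged wild type 1 for 8 and challenged mutant 2 for 7, while challenged wild type 4 was the lowest of its group for 6 and challenged mutant 4 for 5, though highest for 2. Unchallenged wild type 1 was the lowest of its group for 4 members and the highest for 4. Relative to the mean of unchallenged wild types the 9 members averaged -0.38 on challenged wild type 1 and -0.75, -0.75 and -0.88 on challenged wild types 2 to 4. On challenged mutants 1 to 4 they averaged -1.08, -0.68, -0.94 and -1.24. The high arrays, challenged wild type 1 and challenged mutant 2, had the highest pancreas sums of their groups, and squamous epithelium sums of 8.95 and 8.96 against 13.18 to 15.66 and 9.39 to 13.95 on the other arrays of their groups. Challenged mutant 1, also rich in pancreas transcripts and at 9.39 in the squamous list, was the lowest of its group for 4 members and the highest for 0. Challenged wild type 2, also rich in pancreas transcripts, was the highest for 0. The part of such transcripts in the members' values was not tested. Without the 4 challenged arrays rich in pancreas transcripts 7 members were called lower in wild types, Acvrl1 and Cdh5 joining the 5. In mutants that fit called the 5 genes.

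Which genes ran most like the members was asked over all 15 arrays, by the root mean square difference of log2 profiles each centred on its own mean. Against the mean profile of the 9 members the nearest of 10185 other genes were Fmo1 (0.114), Lhfp (0.117), Fnbp1l (0.118), Golim4 (0.119), Card10 (0.122) and Lurap1l (0.127), beside a median of 0.503. Eng and Pecam1 were the members nearest to that mean, at 0.137 and 0.143, and Epas1 was the farthest, at 0.669. Nearest to Tek were Fbxo30 (0.209), Nhlrc2 (0.213), Tmtc2 (0.223), Hpgd (0.224), Cyth3 (0.231) and Scn7a (0.238), while its relative Tie1 lay at 0.338 and Vwf at 0.718. All arrays share the challenge contrast.

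Whether the mutation alone shifted the members was asked on unchallenged lungs. No member passed: limma called 0 of 9, against 0.00981% of genes called, and 2 of 9 (Eng and Acvrl1) had an unadjusted p under 0.05, where 2.64% of all genes did. Of the 9 members 8 were below 0, with a median of -0.22 beside -0.01 for all genes. Acvrl1 was at -0.55 (95% interval -0.995 to -0.10) and Eng at -0.29 (-0.56 to -0.01), and for both all 3 mutants lay below all 4 wild types, as for 4.98% of genes. Tek was at 0.00 (-0.56 to 0.56) and Pecam1 at -0.07 (-0.40 to 0.25).

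With challenge, the genotypes again gave 0 of 9 calls with limma, against 0.157% of genes called, and 1 of 9 had an unadjusted p under 0.05, where 13.0% of all genes did. That member was Epas1, at -1.05 on its brightest probe (95% interval -1.52 to -0.58; limma adjusted p = 0.0746). Of the other Epas1 probes ILMN_2671698 was at -0.09 (-0.52 to 0.35). ILMN_3129160 was at -0.14 (-0.53 to 0.25), but was detected on 0 arrays of either challenged group and cannot show a difference between them. The difference was thus seen on 1 of the 2 probes detected there. Other markers differed between the same groups: 2 of 6 club cell genes were called lower in mutants, with a list median of -0.86 and sums of 16.07 to 16.36 against 16.37 to 16.78. Of 11 mural cell genes 1, Acta2, was called lower, with sums of 13.82 to 14.15 against 14.54 to 14.77, and the part of either list in the Epas1 value was not tested. The Epas1 difference passed without challenged wild type 4 (-1.23, limma adjusted p = 0.0162) and without challenged mutant 2 (-1.19, limma adjusted p = 0.0304). It also passed in 3 other alternative fits, with adjusted p from 0.0162 to 0.471 over all 31. That range includes the fit on the mean over the gene's probes. Eng was at -0.24 (-0.49 to 0.01), with all 4 challenged mutants below the lowest challenged wild type, as for 2.19% of genes. Tek was at -0.48 (-0.998 to 0.04), a difference of -0.24 without challenged mutant 4.

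The difference between the genotypes in the response to challenge was tested as an interaction. Limma called 0 of 9 members and 0.0% of all genes, and 1 of 9 members, Epas1, had an unadjusted p under 0.05, where 4.10% of genes did. Its interaction was -0.80 on the log2 scale (95% interval -1.49 to -0.10; limma adjusted p = 1.00), beside 0.06 and -0.13 on its other probes. The -0.13 belongs to ILMN_3129160, which was detected on 0 arrays of either challenged group, so its value is limited by detection. For Tie1 the interaction was 0.00 (-0.79 to 0.79) and for Eng 0.04 (-0.33 to 0.41). These intervals allow sizeable differences in either direction for Tie1 and narrower ones for Eng.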

How the data were processed

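Two-sided tests started from the deposited raw data, in which the authors give each probe an intensity on a linear scale and a detection p-value for every array, per the file headers. The series matrix deposited by the authors also holds intensities on a linear scale; its normalization was not stated, and it served as an alternative. GenomeStudio 2011.1 appears in the submitters' processing notes, without a role. The neqc function (limma 3.58.1, R 4.3.3, offset 16) removed background, set quantiles equal and returned log2 values. Probes entered the test with a detection p under 0.05 on 3 or more arrays. Group means were fitted by lmFit over the 15 arrays, moderated by eBayes, with 11 residual degrees of freedom, and p-values were adjusted over 14396 probes (Benjamini-Hochberg, threshold 0.05). Each gene is represented by the tested probe of highest mean. Arrays are separate mice, and their number limits precision.

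All members are named. Of each pathway list up to 5 genes with the smallest p for challenge, and of each marker list the 3 of highest level, could be named, and Prox1, Id1, Id2, Gdf2 and never-detected markers were named after their values were seen. The members and lists were chosen with earlier results of these data known. On simulated arrays, with 200 of 14396 probes changed, recovery was 67% for 2-fold and 21% for 1.5-fold differences in the wild-type challenge comparison, and 59% and 20% in the mutant one. For genotype without challenge it recovered 65% and 24%, and with challenge 75% and 34%. In the data the challenge comparison in wild types called 11.4% of genes lower and 11.2% higher. The recovery rates hold for the simulated share of changed probes and for noise drawn independently for each probe and array. Shifts shared by the probes of an array, as of brightness or other tissues, were not simulated, and normalization was not repeated. The rates do not give the power of the challenge or genotype tests. The alternatives tried were the series matrix, cyclic loess, median scaling, uncorrected background, normexp (offset 50), no filter or detection on all arrays, trend and robust eBayes, array weights, only the groups compared, a replicate block, mean signal as a covariate, the mean over a gene's probes, and leaving out each array. Fits without 3 sets of doubted arrays were chosen after seeing the data.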

Additional observations from a re-analysis of the deposited data

Results flagged for a closer look

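Over the 14 member probes and the 3 groups of 4 arrays, 42 sets of values were examined for 1 array standing far from the other 3, and 6 were marked. Chance marks about 1 in 20 such sets. In unchallenged wild types it was array 1 for Tek (10.95 against 11.36 to 11.39), for the Epas1 probe ILMN_3052632 (9.96 against 9.31 to 9.40) and for the Pecam1 probe ILMN_3147074 (9.81 against 10.42 to 10.54). In challenged wild types it was array 1 for Eng (10.70 against 10.34 to 10.38) and for Kdr (6.06 against 5.52 to 5.57), the only array on which Kdr was detected. In challenged mutants it was array 1 for Acvrl1 (8.48 against 8.76 to 8.81). No member met the test for a different response between the genotypes.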

How the results depend on the processing

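Of 9 tested members 5 were called lower for challenge in each genotype. Median scaling gave 8 in wild types, 8 in mutants and 1 for genotype with challenge, and mean signal as a covariate gave 3 and 2 for the challenge. Detection on all arrays gave 1 (Epas1) for genotype with challenge, where the count was 0. The fit without the 4 arrays low in muscle and squamous transcripts gave 1 (Epas1) there too. By that fit Acvrl1 and Cdh5 also passed for challenge in wild types. Leaving out each array in turn gave 5 to 7 for challenge in wild types (7 without challenged wild type 1), 4 to 5 for challenge in mutants (4 without unchallenged mutant 2), 0 to 1 for genotype with challenge, 0 to 0 for genotype without challenge and 0 to 0 for the interaction. With median scaling Flt1 in mutants turned from 0.06 to -0.55. Same-numbered arrays of different groups correlated at -0.11 to 0.50 in their deviations from group means, over 0.1 in 9 of 21 pairs. Such correlations cannot settle whether the numbers pair the mice, and the main fit did not treat them as pairs. Not every array correlated best with its own number: 3 of 8 did for challenge in wild types, 2 of 6 for challenge in mutants, 4 of 6 and 2 of 8 for genotype without and with challenge. With the replicate number as a block the counts were 5, 5, 0, 0 and 0. The causes of these changes were not tested. Probes below detection on challenged arrays (the second Flt1 probe, the third Epas1 probe) limit what can be said of size. The Kdr probe was not detected on any unchallenged array either.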

Other observations

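Lymphatic vessels share several of these receptors, and their marker genes were lower after challenge where they passed. Of 6 listed genes 5 were on the array and 4 were tested, with 2 lower and 0 higher in each genotype. Of all genes 11.4% were called lower in wild types and 15.2% in mutants. Lyve1, a hyaluronan receptor of lymphatic endothelium and some macrophages, fell by 1.02 ± 0.22 in wild types and by 0.78 ± 0.24 in mutants (SE, log2; limma adjusted p = 0.00535 and 0.0241). Ccl21a, a chemokine that draws dendritic cells into lymphatics, fell by 1.08 in wild types and was at -0.61 in mutants without passing, and Reln fell by 0.65 in mutants. Prox1, the factor that sets lymphatic identity, was at 0.13 and 0.12 and did not pass (adjusted p = 0.619 and 0.627). The summed level of the list was 12.55 to 12.80 in unchallenged and 11.06 to 12.02 in challenged wild types on the log2 scale, and 12.40 to 12.60 and 11.79 to 12.15 in mutants.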
